A study of Homo sapiens with 6 samples.

Results

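The genes of fatty acid synthesis and desaturation were examined on Affymetrix expression arrays of SNU-449, an established cell line from a human hepatocellular carcinoma. The 10 genes on the list are the lipogenic enzymes ACLY, ACACA and FASN, the elongase ELOVL6, the desaturases SCD, FADS1 and FADS2, the acyl-CoA synthetases ACSL1 and ACSL3, and SREBF1, which encodes a transcription factor that drives their expression. A probe set, the group of probes that reads a single transcript or transcript group, was taken where the platform annotation gave exactly 1 of these symbols. That left 20 of 54613 probe sets, from 8 of the 10 genes. FADS1 was named only by 3 probe sets that also name MIR1908, which are given at the end, and ACSL3 by no probe set in the annotation used. Neither enters the expression counts. The comparison set 3 arrays against 3, the cells labelled as carrying an empty vector and the cells labelled as overexpressing USP48, a ubiquitin-specific protease. According to the labels, the latter were transduced with a USP48 lentivirus and selected with puromycin as a stable line, and the titles speak of transfection. The labels describe neither the empty vector construct nor its selection, and they give no promoter and no statement on whether lines were clonal. They also do not say that replicates came from separate cultures, so all p-values measure the spread between these arrays, which may be technical.

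Fatty acid synthesis turns surplus carbon into membrane and storage lipid. ACLY splits citrate exported from mitochondria to give cytosolic acetyl-CoA, ACACA carboxylates it to malonyl-CoA, and FASN joins these units into palmitate. ELOVL6 lengthens palmitate, SCD inserts a double bond into saturated chains, FADS1 and FADS2 desaturate polyunsaturated chains, and the ACSL enzymes couple free fatty acids to coenzyme A. The protein of SREBF1 is held in the endoplasmic reticulum, is released by proteolysis and then activates most of these genes, and the pathway is active in liver and often raised in liver tumours.

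Read by their brightest probe sets, transcripts along the whole route from citrate to monounsaturated fatty acids were lower in the USP48-labelled arrays. The front desaturase FADS2 did not pass the test. For FASN, ACACA, SREBF1 and ACLY no dimmer probe set was called. By the brightest probe set of each gene, 7 of 8 genes fell and 0 rose, against 13.2% of all 19775 genes that fell and 14% that rose at a limma adjusted p under 0.05. Over all their probe sets, 13 of 20 fell and 0 rose, against 13.8% lower and 10.6% higher among all probe sets. The median log2 difference, USP48-labelled minus empty vector, was −0.51 over the 20 probe sets and 0.03 over all probe sets. SCD had the largest decrease and ACLY the smallest of those called, with log2 differences of −2.08 and −0.38 at their brightest probe sets. In 14 of the 20 probe sets all USP48-labelled arrays lay below all empty vector arrays, which held for 19.4% of all probe sets, and in 0 they all lay above, which held for 18.8%. Probe sets of a gene were read in the same RNA samples and are not independent, though they need not read the same transcripts. Fewer transcripts per cell and a changed mix of cells cannot be told apart in such samples.

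**Figure D1:**
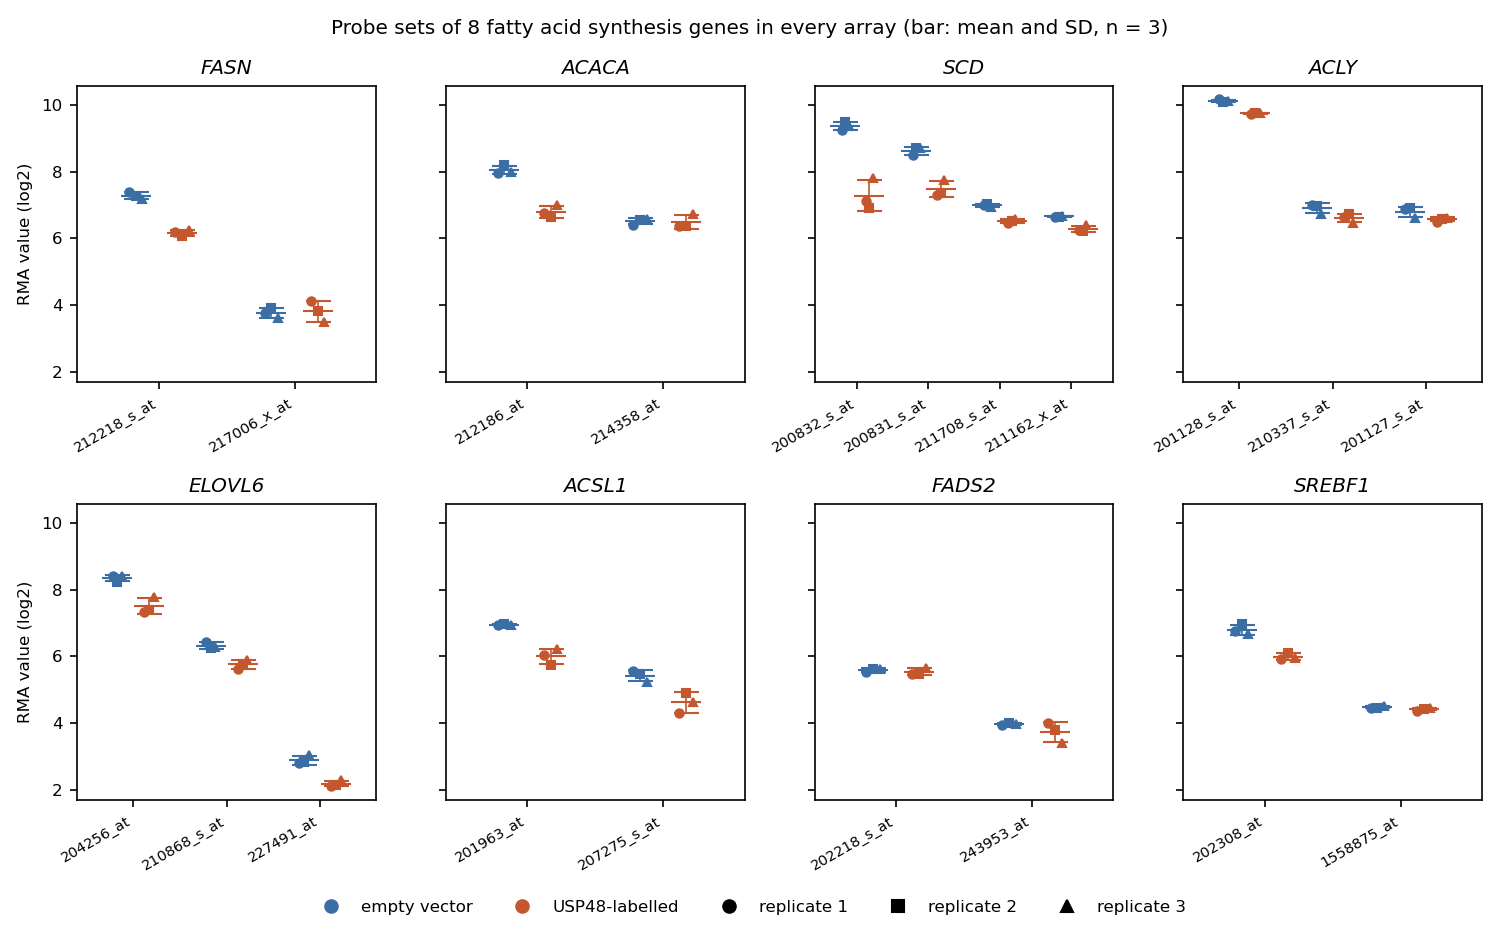
RMA values (log2 scale, vertical axis) of the 20 probe sets of 8 genes, 1 panel a gene, with empty vector arrays in blue, USP48-labelled arrays in orange, replicates 1 to 3 as circle, square and triangle, and bars for mean and SD (n = 3). The USP48-labelled arrays lie below the empty vector arrays for the brightest probe set of every gene but FADS2, while dimmer probe sets of FASN, ACACA, FADS2 and ACLY overlap.

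Properties of the arrays also differed between the groups. USP48 itself was not called higher by any of its 5 probe sets, with log2 differences from −0.82 to 0.24, of which 2 were called lower. Whether these probe sets can read the transferred sequence is not known here. The 18 hybridization controls, labelled RNAs added before hybridization, averaged 9.75 to 9.83 in the empty vector arrays and 10.02 to 10.21 in the USP48-labelled arrays (two-sided exact permutation test, p = 0.1, below which this design cannot go). The 24 poly-A controls, RNAs added before labelling, averaged 4.98 to 5.21 and 5.32 to 5.80, a difference of 0.42 (exact permutation p = 0.1). Scaling the arrays on the hybridization controls lowers every log2 difference by 0.29. The share of called probe sets that were lower then rises from 56.6% to 92.1%, and 19 of the 20 probe sets of fatty acid synthesis genes were called lower, against 39.0% of all probe sets. For GAPDH the 5′ probe set minus the 3′ probe set, which falls as RNA degrades, was −0.44 to −0.32 in the empty vector arrays, −0.51 and −0.45 in USP48-labelled replicates 1 and 2, and −1.31 in replicate 3. For ACTB it was −3.70 to −3.26 and −4.14 to −3.44, a difference of −0.36 (exact permutation p = 0.2). Without USP48-labelled replicate 3, 13 of the 20 probe sets fell, as with it. The difference of SCD 200832_s_at was then −2.34, with that replicate the highest of its group.

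The labelled cell type was checked against marker genes, whose mean levels are given for empty vector and then USP48-labelled arrays. Of 9 measured hepatocyte markers 0 were called. ALB, APOB, APOA1, FGB and SERPINA1 lay below the median of every array (3.74 to 3.79), with ALB at 2.07 and 2.14. The other 4 did not, namely CYP3A4 at 5.84 and 5.85, TTR at 5.11 and 5.31, TF at 4.30 and 4.33 and AFP at 3.75 and 3.96, so the markers of the labelled lineage were uneven. Among the keratins, KRT18 was at 11.79 and 11.80 and KRT8 at 10.88 and 10.57, while KRT19 was at 2.81 in both groups, below the array medians. The probe sets of CYP3A4, KRT18 and KRT8 carry the suffix _x_at, which marks probe sets that can also bind other sequences. Adipocytes also make fatty acids, and of their 6 markers 0 fell and 1, CIDEC, rose, a call lost with any 1 array left out. ADIPOQ, at 1.55 and 1.76, LEP, at 3.19 and 3.33, and FABP4, at 2.79 and 2.83, lay below the array medians, but CFD was at 8.998 and 8.793 and PLIN1 at 4.49 and 4.58. The log2 values of these markers summed to 24.9 to 25.7 in the empty vector arrays and 25.8 to 26.2 in the USP48-labelled arrays. The part of these markers in the results was not tested. Of 4 measured leukocyte markers 0 were called by their brightest probe set, with PTPRC at 1.96 and 1.88, CD14 at 3.00 and 3.31, ITGAM at 3.91 and 4.14 and CD3E at 4.40 and 4.60. A dimmer ITGAM probe set was called higher, at 0.39.

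Because several of these genes fell together, their annotated promoters were searched for motifs of SREBP proteins and their partners. RefSeq promoters of GRCh38.p14, from 250 bases before to 50 after each start, were held for 9 of the 10 genes, 17 starts in all. FASN had no entry. In that annotation SCD spans chr10:100347233-100364826, FASN chr17:82078338-82098236, ACACA chr17:37084992-37406836, ACLY chr17:41866917-41930545 and SREBF1 chr17:17811334-17836986. ELOVL6 spans chr4:110045846-110199202, ACSL1 chr4:184755595-184826594 and FADS2 chr11:61816203-61867354, and all are protein-coding genes. The sterol regulatory element was searched as TCACCCCAC and, with a free base, as TCACNCCAC. The box of the partner factor NF-Y was searched as CCAAT, and the E-box, bound by SREBP proteins and by others, as CACGTG, each on both strands. The first spelling is contained in the second, so each of its matches counts under both. CCAAT was found at 8 of the 17 starts, from 6 genes, and in 34.6% of all 35116 promoters of the same length. The windows of the 2 ACLY starts overlap and hold the same boxes, which count at both. TCACCCCAC was found at 1 of the 17 starts, in ACSL1, and in 0.43% of all promoters, TCACNCCAC at that same start only and in 1.13% of all, and CACGTG at 0 of 17 and in 7.26% of all. A match is a run of letters and not a shown binding site. These windows do not hold elements that lie farther off.

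The windows with the most matches are shown for 4 genes that fell, as the 250 bases before a start, on the strand of the gene and 5′ to 3′, with CCAAT on either strand and the sterol regulatory element in capitals. The SCD window is chr10:100346983-100347232, plus strand, and carries CCAAT 229 and 186 bases before its start. The ACLY window is chr17:41919023-41919272, minus strand, with its boxes 65 and 23 bases before the start, and lies inside the annotated span of the gene. The ACACA window, chr17:37299768-37300017, minus strand, has boxes 155 and 136 bases before its start and lies inside the gene, downstream of its farthest start. The ACSL1 window, chr4:184805554-184805803, minus strand, is also inside its gene and holds the sterol regulatory element 242 bases and CCAAT 215 bases before the start.
SCD: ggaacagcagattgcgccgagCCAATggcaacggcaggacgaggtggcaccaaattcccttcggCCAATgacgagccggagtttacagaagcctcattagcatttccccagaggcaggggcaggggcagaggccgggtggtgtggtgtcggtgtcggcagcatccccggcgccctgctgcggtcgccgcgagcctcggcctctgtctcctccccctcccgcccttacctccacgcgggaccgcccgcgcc
ACLY: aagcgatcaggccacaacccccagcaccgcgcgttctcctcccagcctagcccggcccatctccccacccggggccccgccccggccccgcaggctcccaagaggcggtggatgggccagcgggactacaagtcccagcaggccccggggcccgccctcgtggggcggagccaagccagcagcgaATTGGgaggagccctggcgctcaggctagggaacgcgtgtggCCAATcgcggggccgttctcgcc
ACACA: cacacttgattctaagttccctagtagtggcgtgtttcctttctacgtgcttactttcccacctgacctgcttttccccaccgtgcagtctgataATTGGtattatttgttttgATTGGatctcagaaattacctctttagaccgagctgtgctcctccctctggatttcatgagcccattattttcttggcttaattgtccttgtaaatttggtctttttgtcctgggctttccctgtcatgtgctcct
ACSL1: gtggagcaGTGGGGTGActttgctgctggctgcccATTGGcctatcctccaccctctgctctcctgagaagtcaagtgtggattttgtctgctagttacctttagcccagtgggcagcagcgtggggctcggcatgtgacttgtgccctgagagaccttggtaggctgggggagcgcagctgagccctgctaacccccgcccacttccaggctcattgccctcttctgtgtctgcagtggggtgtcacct

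**Figure D2:**
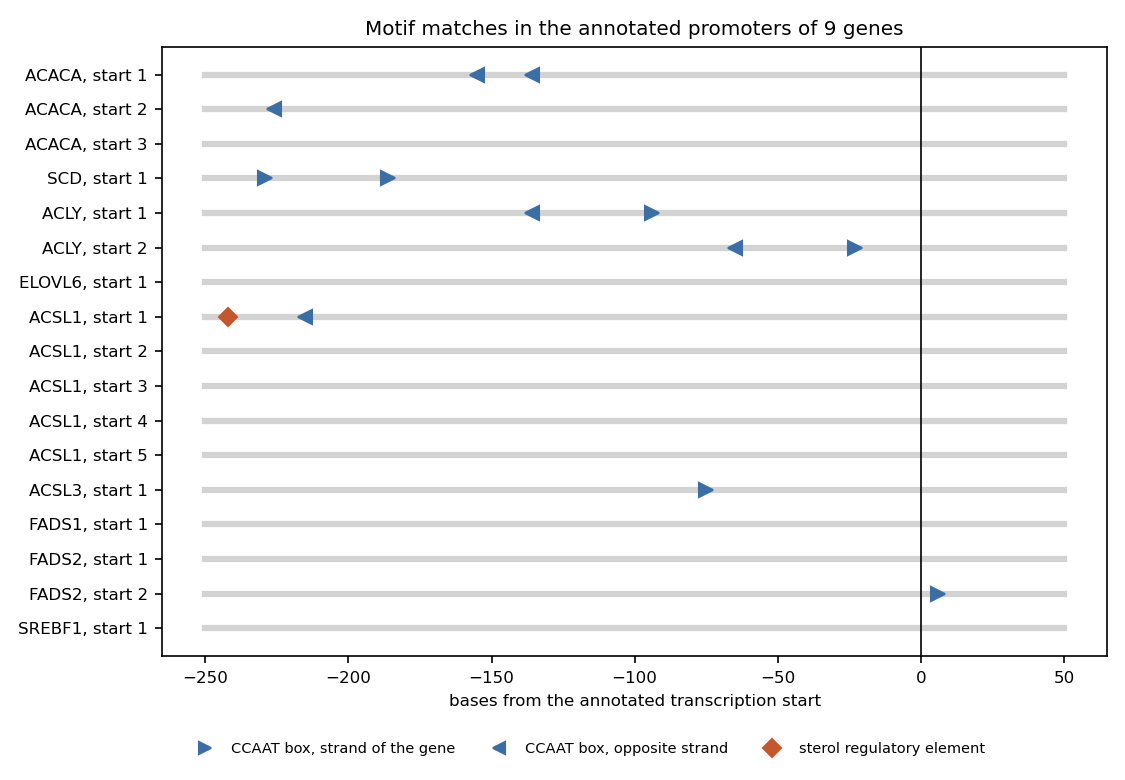
Matches of CCAAT (triangles, pointing along the strand) and of the sterol regulatory element (diamond) in 17 annotated promoters of 9 genes, by distance in bases from the transcription start, with starts numbered by coordinate. CCAAT matches lie at 8 starts and the sterol regulatory element at 1 start of ACSL1; ELOVL6, FADS1 and SREBF1 show neither.

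SREBF1, the regulator of the set, fell by its brighter probe set, 202308_at. Its values were 6.76, 6.97 and 6.66 in empty vector replicates 1 to 3 and 5.92, 6.11 and 5.96 in the USP48-labelled replicates. The lowest empty vector array stood 0.55 above the highest USP48-labelled array. The log2 difference was −0.80 (95% confidence interval −1.03 to −0.56, limma adjusted p = 0.00031), or 1.74-fold lower. The dimmer probe set 1558875_at read 4.46, 4.46 and 4.52 against 4.38, 4.43 and 4.46. Its groups did not overlap but were only 0.0017 apart. The difference of −0.06 did not pass (adjusted p = 0.69), and its interval, −0.25 to 0.13, does not reach that of the brighter probe set.

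ACLY, at the entry of the route, changed least among the enzymes that were called. Probe set 201128_s_at, among the brightest of the array, read 10.16, 10.10 and 10.11 in empty vector cells and 9.73, 9.76 and 9.75 in USP48-labelled cells. The spread within each group was small (SD 0.04 and 0.02), and the groups did not overlap. A log2 difference of −0.38 resulted (interval −0.56 to −0.19, adjusted p = 0.0079), or 1.30-fold lower. The other probe sets, 210337_s_at and 201127_s_at, were at −0.29 and −0.22 (adjusted p = 0.083 and 0.16) and overlapped between groups, with empty vector replicate 3 the lowest of its group in both. Without empty vector replicate 3 the former passed, at −0.38 (adjusted p = 0.047).

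ACACA, which makes malonyl-CoA and commits carbon to the pathway, gave different answers by probe set. At 212186_at the empty vector arrays read 7.97, 8.19 and 7.98 and the USP48-labelled arrays 6.77, 6.63 and 6.99. All USP48-labelled arrays lay nearly a full log2 unit below the lowest empty vector array. The difference was −1.25 (interval −1.50 to −0.9997, adjusted p = 2.4e-05), 2.38-fold lower. At 214358_at the values were 6.40, 6.54 and 6.58 against 6.36, 6.37 and 6.73, and the groups overlapped, with USP48-labelled replicate 3 the highest of all 6. That probe set was at −0.02 (interval −0.28 to 0.24, adjusted p = 0.92), so a decrease of the size of the first lies outside its interval.

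FASN, the synthase itself, showed the same split. Probe set 212218_s_at read 7.39, 7.27 and 7.18 in empty vector cells and 6.18, 6.08 and 6.26 in USP48-labelled cells. The groups were 0.92 apart, more than the range within either. FASN thus stood at a log2 difference of −1.11 (interval −1.32 to −0.89, adjusted p = 2.0e-05), 2.16-fold lower. The other probe set, 217006_x_at, was near the array medians, at 3.75, 3.90 and 3.60 against 4.12, 3.81 and 3.50, and its groups overlapped. Its difference was 0.06 (interval −0.27 to 0.39, adjusted p = 0.82), and the suffix _x_at marks probe sets that can also bind other sequences. Among others, SCD 211162_x_at, 208963_x_at (FADS1 and MIR1908) and the brightest probe sets of IDI1 and FN1 carry that suffix too.

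ELOVL6, which extends palmitate to stearate, fell at all 3 of its probe sets. At 204256_at the values were 8.41, 8.23 and 8.41 against 7.32, 7.41 and 7.78. USP48-labelled replicate 3 was the highest of its group and still 0.46 below the lowest empty vector array. This gave a log2 difference of −0.85 (interval −1.13 to −0.57, adjusted p = 0.00058), 1.80-fold lower. Probe set 210868_s_at fell by 0.55 on the log2 scale (adjusted p = 0.0027). Probe set 227491_at fell by 0.70 (adjusted p = 0.00051), but its means of 2.89 and 2.19 lie below the median of every array, so no fold is given for it.

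SCD, the rate-limiting desaturase of oleate synthesis, had the largest decrease of the set and fell at all 4 of its probe sets. At 200832_s_at the empty vector arrays read 9.24, 9.47 and 9.36 and the USP48-labelled arrays 7.13, 6.91 and 7.79. The groups were 1.45 apart, the widest gap among the 20 probe sets, although USP48-labelled replicate 3 stood well above the others of its group. Its log2 difference was −2.08 (interval −2.50 to −1.67, adjusted p = 2.3e-05), 4.23-fold lower, and ranked 52 from the bottom among 54613 probe sets. At 200831_s_at the values were 8.49, 8.69 and 8.70 against 7.31, 7.37 and 7.76, with a difference of −1.15 (adjusted p = 8.5e-05). The dimmer probe sets 211708_s_at and 211162_x_at moved less, by −0.47 and −0.37 (adjusted p = 0.0026 and 0.012). The intervals of these 2 probe sets, −0.66 to −0.27 and −0.57 to −0.17, do not reach those of the brighter ones.

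FADS2, the front desaturase of polyunsaturated fatty acids, did not pass at either probe set. At 202218_s_at the values were 5.53, 5.64 and 5.62 in empty vector cells and 5.48, 5.47 and 5.66 in USP48-labelled cells, and the groups overlapped. Its log2 difference was −0.06, with an interval of −0.26 to 0.15 (adjusted p = 0.73), which leaves out decreases of the size of the other enzymes' brightest probe sets. At 243953_at the empty vector arrays read 3.93, 4.02 and 3.98 and the USP48-labelled arrays 4.02, 3.79 and 3.40. Replicate 3 was lowest there, and the difference of −0.24 had an interval of −0.55 to 0.07 (adjusted p = 0.25). With arrays scaled on the hybridization controls both probe sets were called lower, at −0.35 and −0.54 (adjusted p = 0.022 and 0.015).

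ACSL1, which activates long-chain fatty acids to their coenzyme A esters, fell at both probe sets. At 201963_at the empty vector arrays agreed closely at 6.94, 6.97 and 6.94, and the USP48-labelled arrays read 6.04, 5.74 and 6.21. The spread was larger in the USP48-labelled group (SD 0.24 against 0.02), and the groups were 0.73 apart. That gave a log2 difference of −0.95 (interval −1.22 to −0.69, adjusted p = 0.00019), 1.94-fold lower. Probe set 207275_s_at read 5.56, 5.48 and 5.24 against 4.31, 4.92 and 4.64. Its difference was −0.81 (interval −1.13 to −0.48, adjusted p = 0.0023).

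**Figure D3:**
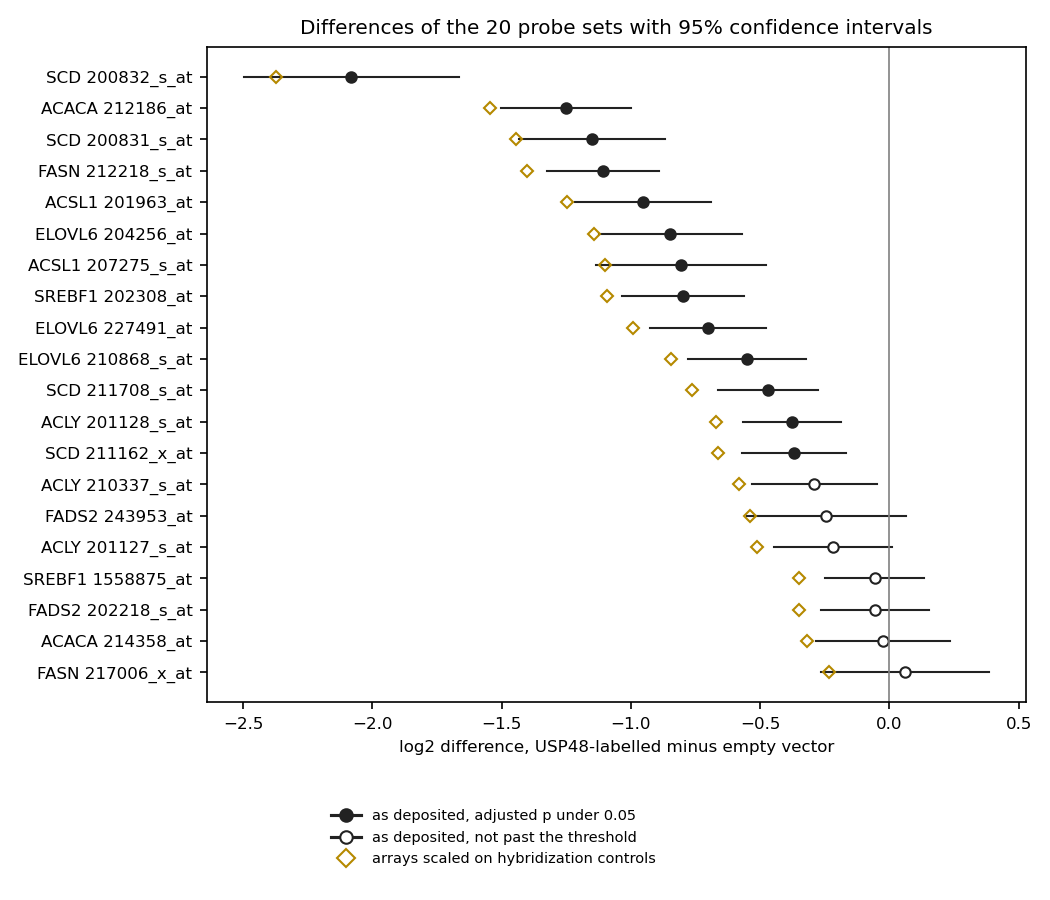
Log2 differences (horizontal axis, USP48-labelled minus empty vector) of the 20 probe sets with 95% confidence intervals from limma, filled where the adjusted p is under 0.05, and the difference after scaling on hybridization controls as diamonds. SCD 200832_s_at stands apart at −2.08, and the 7 open points include a probe set each of FASN, ACACA and SREBF1 and both of FADS2.

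Ordered by the brightest probe set, the decreases ran from SCD through ACACA, FASN, ACSL1, ELOVL6 and SREBF1 to ACLY, with FADS2 last. The interval of SCD did not overlap that of any other gene. From ACACA on, the interval of each gene overlapped that of the next in order, for SREBF1 and ACLY only at their ends (−1.03 to −0.56 and −0.56 to −0.19). The interval of ACLY touched none of those of ACACA, FASN, ACSL1 and ELOVL6. Differences between genes were not tested, and overlapping intervals do not show that neighbours changed alike.

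Probe sets within a gene were compared by the gap between the brightest and each dimmer probe set in the same array, over 12 pairs. The gap changed by −1.71 on the log2 scale between SCD 200832_s_at and 211162_x_at, by −1.23 between the ACACA probe sets, by −1.17 between those of FASN and by −0.74 between those of SREBF1. For 7 of the 12 pairs the gaps of the groups differed as clearly as 3 against 3 arrays allow (two-sided exact permutation p = 0.1, Benjamini-Hochberg adjusted p = 0.17), and no pair could reach 0.05. The smallest change of the gap, −0.09, was between ACLY 201128_s_at and 210337_s_at (exact permutation p = 0.50), and that of the ACSL1 pair was −0.15 (exact permutation p = 0.90). For FASN, ACACA and SREBF1 the decrease therefore rests on 1 probe set each. ACLY also had only 1 called probe set, while 210337_s_at and 201127_s_at, at −0.29 and −0.22, were not called. Averaging all probe sets of a gene gave log2 differences of −1.02 for SCD, −0.88 for ACSL1, −0.70 for ELOVL6, −0.64 for ACACA, −0.52 for FASN, −0.43 for SREBF1 and −0.29 for ACLY, and all 7 stayed called in that fit (adjusted p from 6.2e-05 to 0.018), while FADS2 at −0.15 did not (adjusted p = 0.20).

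USP48-labelled replicate 3 was the highest of its group in 10 of the 13 probe sets that fell, and thus the nearest to the empty vector arrays. Among all 7519 probe sets that fell, this held for 52.3%. The part of its RNA quality in this was not tested. At SCD 200832_s_at, ACACA 212186_at, ELOVL6 204256_at and FASN 212218_s_at replicate 3 was the highest, so leaving it out could only enlarge the decrease. Their differences were then −2.34, −1.34, −0.99 and −1.15. At SREBF1 202308_at, where it was not the highest, the difference went from −0.80 to −0.78.

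Neighbouring steps of lipid metabolism were read from lists of genes chosen with earlier results of these data known, each gene by its brightest probe set. Genes of cholesterol synthesis, of the elongation cycle and of fatty acid oxidation were more often called lower than higher. The lists of supply, storage and glycerolipid synthesis held calls in both directions, though in the supply list only the related genes OXSM and MID1IP1 rose. Over all 19775 genes 13.2% fell and 14% rose, with a median log2 difference of 0.05. Counts and medians below are descriptions, with no test of a list as a whole.

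Of 15 measured genes of elongation and desaturation outside the synthesis set, 7 fell and 1 rose (median −0.21). With an array left out 6 to 7 fell and 1 rose. SCD5, a second stearoyl-CoA desaturase, was at 5.80, 5.74 and 5.59 in the empty vector arrays and at 4.07, 4.18 and 4.01 in the USP48-labelled arrays. This difference, −1.63 (adjusted p = 2.2e-06, 3.09-fold lower), came without any overlap, but the 3 other SCD5 probe sets were not called and ranged from −0.23 to 0.16. HACD2, the dehydratase of the elongation cycle, fell by 1.22 (adjusted p = 0.00020), and its other probe set fell by 1.04. TECR, the last reductase of the cycle, fell by 0.68 (adjusted p = 0.0042), and its other probe set, at −0.27, was not called. HSD17B12, the ketoacyl reductase of the cycle, fell by 0.70 (adjusted p = 0.0023), while another of its probe sets rose by 0.60 and the mean of its probe sets was at 0.01. FADS3, a relative of FADS2 singled out after its values were seen as the 1 member that rose, was at 0.52 (adjusted p = 0.0061), with its other probe set at 0.68, and was no longer called with scaling on hybridization controls (0.23, adjusted p = 0.12).

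Of 12 listed SREBP targets in cholesterol synthesis and uptake 8 were measured, of which 7 fell and 0 rose (median −0.68). No uptake receptor was among those measured, namely HMGCS1, SQLE, IDI1, FDPS, MVD, LSS, DHCR7 and the sterol carrier STARD4. SQLE, which epoxidises squalene, fell by 1.06, IDI1, an isoprenoid isomerase, by 0.84, DHCR7, a terminal reductase, by 0.83, and FDPS, which makes farnesyl diphosphate, by 0.70 on the log2 scale (adjusted p = 3.6e-05, 0.00030, 0.00044 and 0.00048). Of the 3 other IDI1 probe sets 1 was called lower, and of the 3 other SQLE probe sets 2 were. With any 1 array left out, 7 of the 8 genes were again called lower.

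Among 21 regulators of lipogenesis and of SREBP processing, 7 fell and 3 rose (median −0.16). Those with the largest differences were TRIB3, a pseudokinase, at 0.88 (adjusted p = 0.00038), PRKAA1, a catalytic subunit of AMP-activated kinase, at 0.77 (adjusted p = 0.00039), LPIN1, a phosphatidate phosphatase, at −0.70 (adjusted p = 0.0017), and PPARG, a lipogenic nuclear receptor, at 0.52 (adjusted p = 0.0016). PRKAA1 was contradicted by its dimmer probe sets, of which 3 of 4 fell, down to −1.21. For LPIN1 1 of 2 dimmer probe sets fell, at −0.81, and the other was at 0.16. PPARG was not called with scaling on hybridization controls (0.22, adjusted p = 0.13). SREBF2 and INSIG1 were singled out after their values were seen, as the paralog of SREBF1 and as the retention factor that is itself an SREBP target. INSIG1 fell by 0.51 (adjusted p = 0.0041), and its 2 dimmer probe sets fell by 1.001 and 1.57. SREBF2 was at −0.39 (adjusted p = 0.028), and both its other probe sets fell, but the call was lost when empty vector replicate 2 or 3 was left out (−0.34 and −0.39, adjusted p = 0.11 and 0.075), or USP48-labelled replicate 1 or 2 (−0.30 and −0.40, adjusted p = 0.10 and 0.062). The number of regulators that fell was 2 without empty vector replicate 2 or USP48-labelled replicate 1 and at most 5 with any other array left out.

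The list for the supply of citrate, acetyl-CoA and reducing power also holds related genes. The 2 genes that rose, OXSM and MID1IP1, are of that kind. Of 11 measured genes 3 fell and 2 rose (median −0.06). SLC25A1, the citrate exporter of mitochondria, fell by 0.69 (adjusted p = 0.0032) and CS, citrate synthase, by 0.53 (adjusted p = 0.0018). The remaining gene that fell was ACSS2, an acetyl-CoA synthetase, at −0.32 (adjusted p = 0.038). ME1, IDH1 and PGD, which supply NADPH, were not called. OXSM, the ketoacyl synthase of the separate mitochondrial pathway, rose by 0.52 (adjusted p = 0.0015), but not with scaling on hybridization controls (0.22, adjusted p = 0.15). MID1IP1, which promotes polymerisation of ACACA protein, rose by 0.32 (adjusted p = 0.037), a call lost without empty vector replicate 1 or 3 or USP48-labelled replicate 2 or 3 (adjusted p = 0.14, 0.092, 0.097 and 0.087). Counts in this list ranged from 2 to 3 lower and from 1 to 2 higher with an array left out.

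The acyl-CoA synthetases other than ACSL1 and ACSL3 were mostly not called. Of 11 measured genes 1 fell and 2 rose (median −0.14). ACSL5 read 5.62, 5.56 and 5.46 in the empty vector arrays and 6.33, 6.69 and 6.12 in the USP48-labelled arrays. It rose by 0.84 (adjusted p = 0.0010), with no overlap of the groups, and its other probe set was at −0.03. ACSL6 was at 0.45 (adjusted p = 0.017) and was not called when empty vector replicate 1 or 2 or USP48-labelled replicate 1 was left out (adjusted p = 0.074, 0.067 and 0.067). Its 4 other probe sets, from 0.05 to 0.15, were not called. With scaling on hybridization controls ACSL6 was not called either (0.15, adjusted p = 0.38), and its empty vector mean of 3.47 lay below the array medians. SLC27A5 was at −0.32 (adjusted p = 0.0497) and did not pass without any 1 array other than USP48-labelled replicate 2 (adjusted p from 0.051 to 0.19). The other SLC27A5 probe set, at 0.06, was not called. The count that fell was 0 without empty vector replicate 1 or 2 or USP48-labelled replicate 1 or 3, and 2 without USP48-labelled replicate 2.

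Glycerolipid synthesis, which esterifies the finished acyl chains, was called about as often as genes at large. Of 15 measured genes 2 fell and 2 rose (median −0.02), against 13.2% and 14% of all genes. GPAM, the mitochondrial glycerol phosphate acyltransferase and an SREBP target, fell by 0.81 (adjusted p = 0.0032), and its other probe set fell by 0.82. GPAT3, an acyltransferase of the endoplasmic reticulum, rose by 0.83 (adjusted p = 0.00040). AGPAT5 fell by 1.22 (adjusted p = 0.00013), with its other probe set at −0.14, and AGPAT4 was at 0.49 (adjusted p = 0.0063), which was not called with scaling on hybridization controls (0.19, adjusted p = 0.24). Both are acylglycerophosphate acyltransferases.

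Uptake, binding and storage genes held the largest increase of these lists. Of 20 measured genes 3 fell and 4 rose (median 0.09), and leaving out an array gave 2 to 3 lower and 3 to 4 higher. PLIN2, the coat protein of lipid droplets, read 8.18, 8.06 and 8.20 in the empty vector arrays and 9.28, 9.48 and 9.36 in the USP48-labelled arrays. It rose by 1.23 (interval 1.02 to 1.44, adjusted p = 9.8e-06), 2.34-fold, with groups far apart, while its dimmer probe set fell by 0.38. The fatty acid binding protein genes went in opposite directions, FABP3 at −0.96 (adjusted p = 0.00034) and FABP5 at 0.49 (adjusted p = 0.0052), the latter not called with scaling on hybridization controls (0.19, adjusted p = 0.20). CIDEB, a lipid droplet and lipoprotein factor, fell by 0.67 (adjusted p = 0.00044).

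Fatty acid oxidation, the opposing pathway, fell in part as well. Of 19 measured genes 8 fell and 2 rose (median −0.25). HADH, a dehydrogenase of the mitochondrial cycle, fell by 1.25 (adjusted p = 1.3e-05) and by 1.06 and 0.52 at its other probe sets. PPARA, the nuclear receptor that activates oxidation genes, fell by 0.87 (adjusted p = 0.00031), as did 4 of its 8 other probe sets. CPT1A, which gates entry of acyl chains into mitochondria, fell by 0.56 (adjusted p = 0.0017), although its other 3 probe sets, from −0.23 to 0.03, were not called. ECHS1, the enoyl-CoA hydratase, fell by 0.52 (adjusted p = 0.0079). With any 1 array left out the count that fell was 6 to 7. The count that rose was 1 with any array other than USP48-labelled replicate 3 left out.

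**Figure D4:**
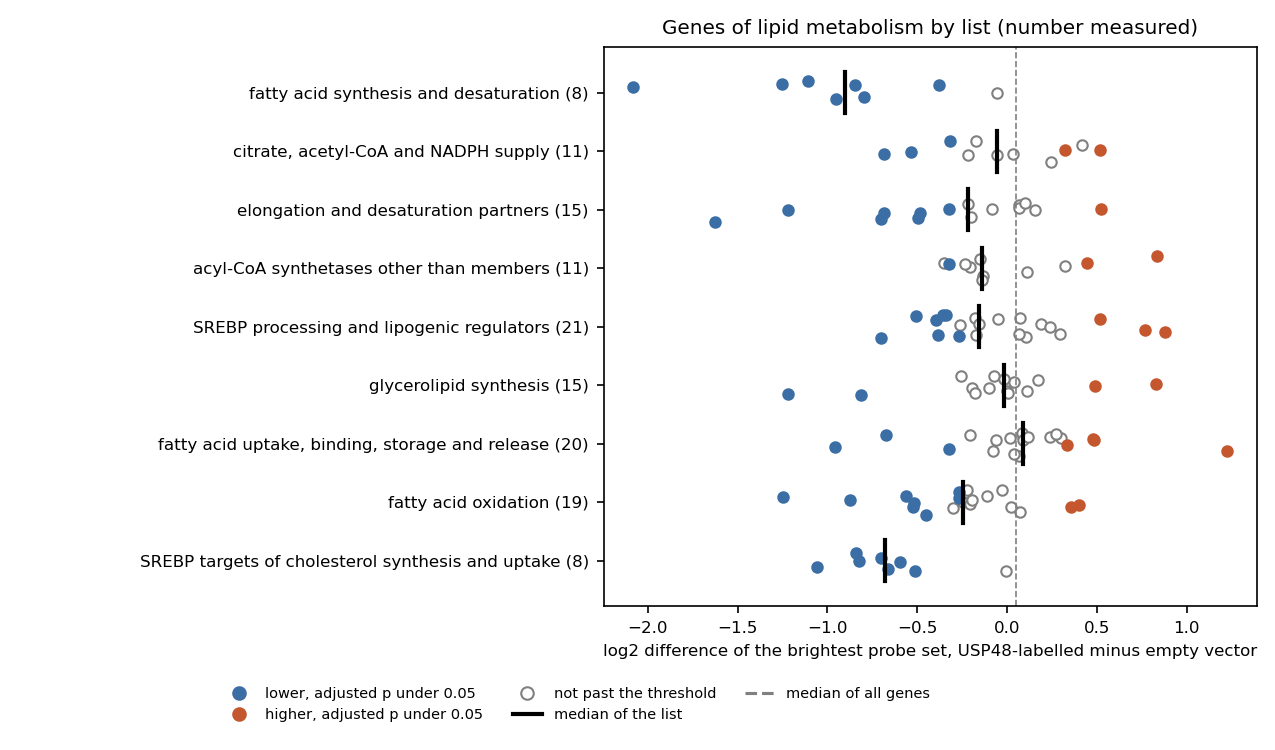
Log2 differences of the brightest probe set of each gene (horizontal axis) in the fatty acid synthesis genes and 8 lists of neighbouring steps, blue where lower and orange where higher at an adjusted p under 0.05 and open otherwise, with list medians as black bars and the median of all genes, 0.05, as a dashed line. The synthesis genes and the cholesterol targets have the lowest medians, −0.90 and −0.68, and the other medians lie between −0.25 and 0.09.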

How the data were processed

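Per the labels, total RNA of SNU-449 cells was biotin-labelled and hybridised to 6 Affymetrix arrays. The authors deposited log2 values, 1 per probe set and array. The submitters' processing notes name RMA without a version. Values reach down to 0.19, lower than RMA usually gives, and the background correction is not known, so low values and statements on array medians hold only on this scale. RMA equalises arrays, so changes of total RNA are not visible, and depth does not apply; 3 arrays a group limit the precision. Of 54675 probe sets 62 controls were left out, 41091 named 1 symbol, 1801 several and 11721 none. No detection call, filter or further normalization was used, 0 columns were unused and 0 were identical.

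Groups, taken from the titles, were compared over all 54613 probe sets with limma 3.58.1 in R 4.3.3 (lmFit, eBayes, two-sided, Benjamini-Hochberg, threshold 0.05). The test was checked on simulated data. Genes were represented by the probe set brightest over all arrays. Of each neighbouring list, up to 4 called genes with the largest difference are named by rule, or 2 where none was called, and a few others beside them. Members, lists, rule and alternatives were chosen with earlier results of these data known. The alternatives were quantile normalization, median centring, scaling on hybridization controls, an intensity trend with robust prior, leaving out dim probe sets, array weights, the replicate block, each array left out, a threshold of 0.01 and gene-level fits. A protein comparison was planned and not run. Figures used matplotlib 3.10.9 in Python 3.11.15.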

Additional observations from a re-analysis of the deposited data

How the results depend on the processing

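The number of called genes of fatty acid synthesis, 7 lower and 0 higher, was the same under every alternative run except scaling on hybridization controls, which gave 8 and 0. Their called probe sets numbered 12 to 14 lower, and 19 with that scaling, and 0 higher throughout; 1 of the 13, ELOVL6 227491_at, was not tested without dim probe sets. All 13 stayed called in each alternative in which they were tested at the threshold of 0.05, with an adjusted p of at most 0.042. Over all probe sets, scaling on hybridization controls gave 21292 lower and 1826 higher and shifted the median difference from 0.03 to −0.26, and at an adjusted p under 0.01 all probe sets called lower numbered 5055 and all probe sets called higher 3301. With 1 array left out these counts ran from 5890 to 7191 lower and from 4170 to 5403 higher.

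Reversals concerned 3 uncalled probe sets. FASN 217006_x_at was at −0.23 after scaling on hybridization controls and between −0.093 and 0.21 with an array left out. ACACA 214358_at was at 0.019 after quantile normalization and between −0.14 and 0.039 with an array left out, and FADS2 202218_s_at was at 0.0092 after quantile normalization. The cause was not tested. The fit with the replicate block called 7281 probe sets lower, 5421 higher and 13 of the 20 lower. Deviations of arrays with the same number correlated at −0.02, 0.11 and −0.02, so the numbers were not taken as pairs.

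For the neighbouring lists, scaling on hybridization controls gave 15 lower and 0 higher genes of oxidation, 9 and 0 of elongation and desaturation, 11 and 2 regulators, 7 and 1 acyl-CoA synthetases, 6 and 1 of glycerolipid synthesis, 6 and 1 of uptake and storage, 5 and 0 of supply and 7 and 0 cholesterol targets. With 3 arrays a group, differences near 0.3 were at the limit of what passed.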

Other observations

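The 3 probe sets that name both FADS1 and MIR1908 belong to no gene count above. Probe set 208964_s_at read 10.03, 10.20 and 10.05 in the empty vector arrays and 9.49, 9.48 and 9.76 in the USP48-labelled arrays, with a log2 difference of −0.52 (limma adjusted p = 0.0044). Probe sets 208963_x_at and 208962_s_at were at −0.49 and −0.41 (adjusted p = 0.0031 and 0.014). All USP48-labelled arrays lay below all empty vector arrays at each of the 3, and which of the named transcripts they read is not settled by the annotation.

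Among the marker lists, 3 mesenchymal genes were called, the matrix protein FN1 at 1.48, the cadherin CDH2 at −0.65 and VIM, an intermediate filament, at −0.42 (limma adjusted p = 0.00084, 0.0016 and 0.011). Of the 6 other FN1 probe sets 4 were called higher, and the other CDH2 probe set was called lower, at −0.41. The other VIM probe set, at −0.11, was not called. Of 6 epithelial markers 2 were called, EPCAM at −0.42 (adjusted p = 0.014) and CDH1 at −0.38 (adjusted p = 0.025). Without empty vector replicate 1 neither passed (adjusted p = 0.063 and 0.070), and CDH1 also did not pass without empty vector replicate 2 or USP48-labelled replicate 1 (adjusted p = 0.10 and 0.093). CDH1, with means of 2.95 and 2.57, lay below the median of every array, and its other probe set, at −0.06, was not called. CIDEC, of the adipocyte and droplet lists, was at 0.33 (adjusted p = 0.049) and did not pass with any 1 array left out (adjusted p from 0.056 to 0.18).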
